A study of Homo sapiens with 15 samples.

Results

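The mitotic and G2/M genes described here are 40 human genes chosen by symbol: cyclins and their kinase, spindle checkpoint, kinetochore, motor, spindle and cytokinesis genes, and genes of sister chromatid separation. They are 40 of the 69215 genes listed in the count tables, and all 40 are among the 12769 that passed the filter on low counts and were tested. RNA was measured by sequencing in Caco-2 cells, a line from a human colorectal adenocarcinoma that grows as an enterocyte-like monolayer. The monolayers were exposed to polysorbate 80 (PS80) at 0.05% for 24 h, to polysorbate 20 (PS20) at 0.05% for 24 h, or to neither, with 5 libraries in each group, and the series addresses how these food emulsifiers impair the gut epithelial barrier. PS80 and PS20 are surfactants built on the same polyoxyethylene sorbitan part, which carries oleate in PS80 and laurate in PS20. Nothing says that the libraries of a group came from separate cultures, so p-values measure only the spread between these libraries, which may be technical.

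Cells enter mitosis when cyclin B and the kinase CDK1 become active, an event prepared in G2 by CDC25 phosphatases and by PLK1 and Aurora kinases. Chromosomes then condense, attach to spindle microtubules through kinetochores, and separate once the spindle checkpoint allows the anaphase promoting complex to mark securin and cyclin B for destruction. The mRNAs of this machinery are made mainly in G2 and mitosis, when FOXM1 and the MuvB complex with B-MYB drive their promoters, and are held down in resting cells by the DREAM complex, which also contains MuvB. MuvB binds a short promoter element called the CHR, often near CCAAT boxes bound by NF-Y. Caco-2 cells divide until the monolayer is dense and then divide less as they take on enterocyte features.

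Levels are CPM, a gene's count per 1000000 counts of its library, with totals adjusted by the trimmed mean of M values (TMM), and fold changes and adjusted p-values come from the quasi-likelihood test of edgeR, with Benjamini-Hochberg adjustment over all tested genes, called at an adjusted p under 0.05. A ± after a log2 fold change is its standard error, and values per library are given in the order of replicates 1 to 5. Total counts per library ranged from 4183096 to 42271053 (median 8829612). Epithelial markers KRT8, KRT18, KRT19, EPCAM, CDH1, VIL1, CDX2, CDH17 and HNF4A were present, KRT20 was at 0 in every library, and CDX1 and LGALS4 averaged at most 1 CPM in every group. The 12 epithelial markers on the list together summed to between 11360 and 11900 CPM with PS80, 9340 and 10037 CPM with PS20 and 11044 and 12756 CPM in control, so every PS20 library lay below every other library. KRT8, a keratin of simple epithelia, averaged 3958 CPM with PS80, 2684 CPM with PS20 and 4436 CPM in control. KRT18, KRT19, VIL1 and HNF4A also had lower means with PS20 than in control. The means of EPCAM, CDH1, CDX2 and CDH17 were higher with PS20 than in control, so the lower sum was not shared by all markers. Of the 9 epithelial markers tested, 1 was called higher and 0 lower with PS80 against control, and 2 higher and 4 lower with PS20 against control; their part in the results below was not tested. Of 12 markers of fibroblasts, endothelium and blood cells, 4 averaged more than 1 CPM (PECAM1, COL1A1, COL3A1 and PDGFRB), while HBB was at 0 in every library. The 12 together summed to between 131 and 181 CPM with PS80, 139 and 159 CPM with PS20 and 147 and 167 CPM in control. Mitochondrial genes took 1.45% to 2.97% of counts with PS80, 2.03% to 2.58% with PS20 and 1.5% to 1.91% in control, so every PS20 library lay above every control library, and the part of this in the results below was not tested. The file headers name featureCounts version 2.0.3 for PS80 replicates 1, 3, 4 and 5 and 2.0.0 for the other 11 libraries, so in those 4 libraries the version and PS80 cannot be told apart.

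Most of the mitotic mRNAs were lower with PS20 than in control, and most were higher with PS80 than with PS20. With PS20, 28 of the 40 genes fell and 1 rose against control, where 23.9% of all tested genes were called lower and 24.4% higher (48.3% either way). With PS80, 16 fell and 4 rose, where 16.0% of all tested genes were called lower and 17.4% higher (33.4% either way). Set directly against each other, 24 genes were higher and 1 lower with PS80 than with PS20, where 18.2% of all tested genes were called higher and 17.3% lower (35.5% either way). The median log2 fold change of the 40 genes was -0.09 for PS80 against control, -0.31 for PS20 against control and 0.21 for PS80 against PS20, beside 0.0017, 0.011 and -0.0021 over all tested genes. Without the filter on low counts 12 fell and 4 rose with PS80, and CCNB2, FOXM1, AURKA and KIF4A lost their calls. When each gene was tested for a change beyond a fold of 1.2 against control, 1 gene fell and 0 rose with PS80 (3.38% and 4.79% of all tested genes), and 14 fell and 0 rose with PS20 (9.34% and 11.2%). In the same test 3 genes were higher and 0 lower with PS80 than with PS20 (3.77% and 4.39%). In bulk RNA, fewer cells in G2 and mitosis and less of these mRNAs per cell cannot be told apart.

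Summed over the 40 genes, mitotic mRNA made up 0.602%, 0.573%, 0.574%, 0.599% and 0.593% of counts with PS80, 0.502%, 0.512%, 0.490%, 0.512% and 0.499% with PS20, and 0.567%, 0.576%, 0.635%, 0.643% and 0.645% in control. Every PS20 library lay below every other library, and every PS80 library lay within the control range. By gene, 21 of the 40 were lower in every PS20 library than in any control library, against 16.3% of all tested genes, and CDC25C alone was higher in every one. With PS80 the same held for 8 genes below control and 3 above, where all tested genes gave 9.30% and 10.3%. PS80 libraries were all above PS20 libraries for 18 genes and all below for 1, against 11.7% and 11.0% of all tested genes.

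**Figure D1:**
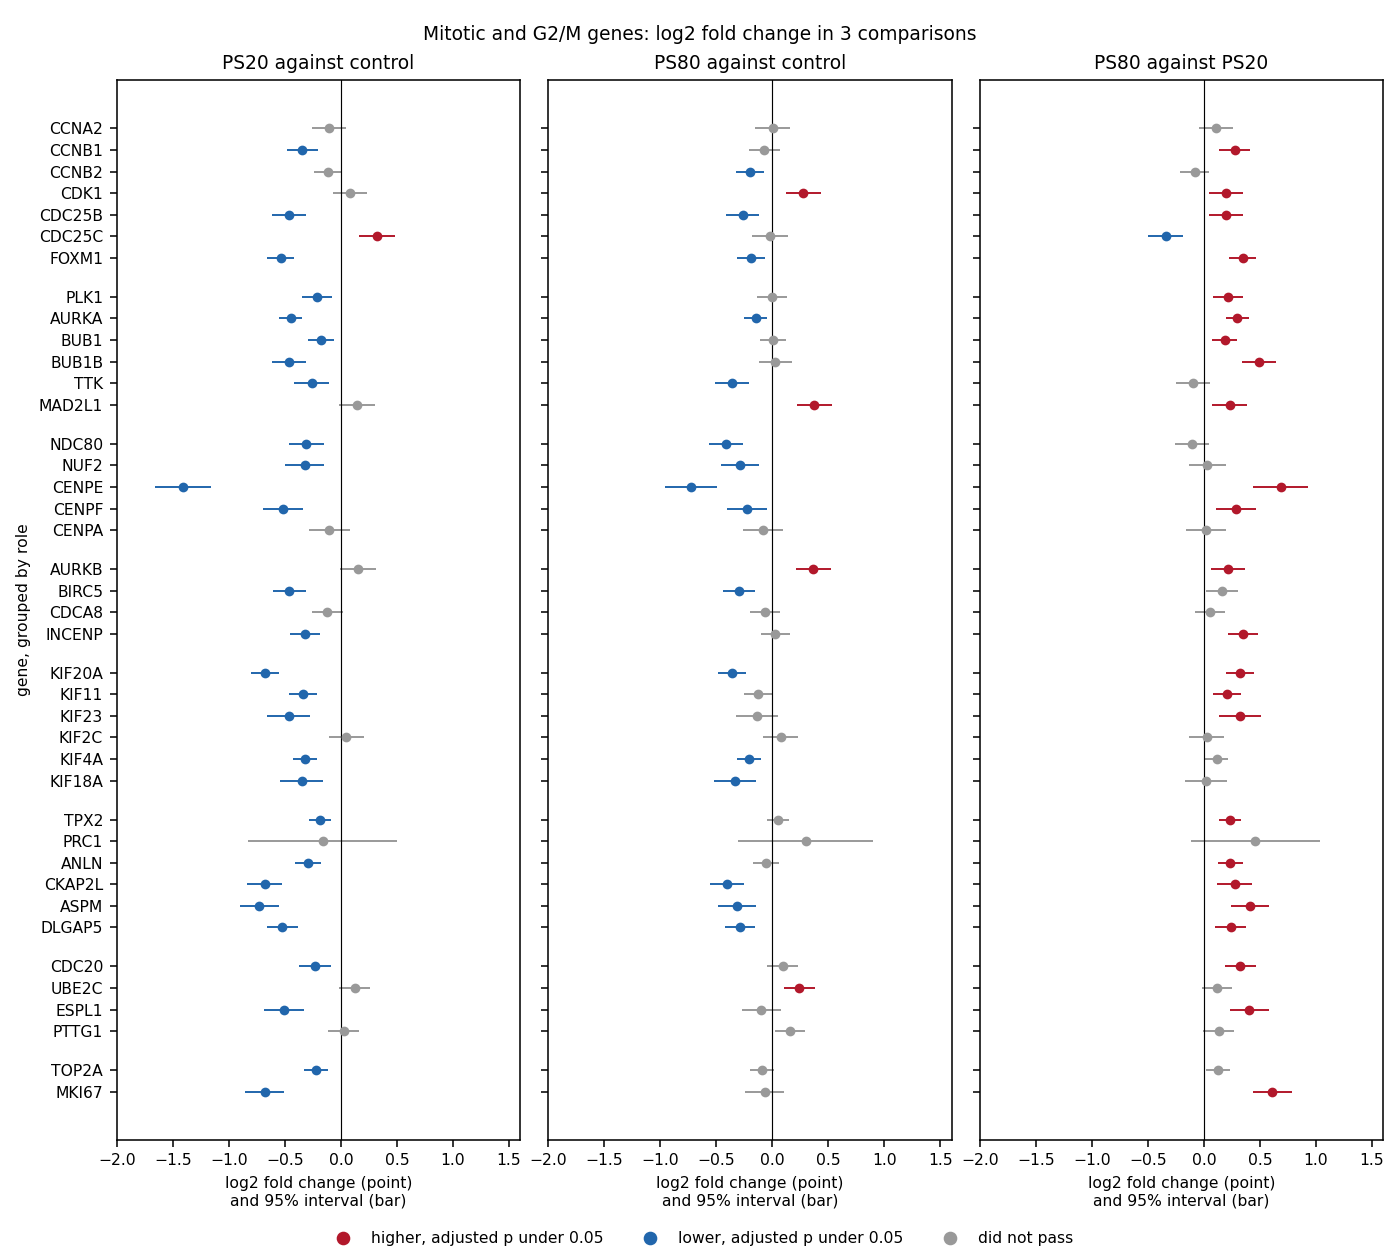
Log2 fold changes of the 40 genes, ordered by role, for each of the comparisons, with bars for the 95% interval. Red points were called higher and blue points lower at an adjusted p under 0.05, and grey points did not pass. CENPE reached -1.41 with PS20 against control, and most genes lay to the right of 0 for PS80 against PS20.

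The promoters of these genes show the letters that cell-cycle promoters are known for. RefSeq promoter entries (GRCh38.p14, 250 bases before to 50 bases after the start) matched 34 of the 40 genes by symbol, in 43 entries, and FOXM1, AURKA, TTK, BIRC5, TPX2 and UBE2C had none. The CHR was searched as TTTGAA or TTCGAA and the CCAAT box as CCAAT, both on either strand. CHR letters were in 67.4% of the 43 entries, against 16.4% of all 35116 promoters, and CCAAT was in 76.7% against 34.6%. Both were in 58.1%, against 6.38% of all promoters. The search was then narrowed to the last 60 bases before the RefSeq start, a window chosen after the positions were seen. CHR letters started there in 44.2% of entries and 3.17% of all promoters. Sequences of 10 genes that the results turn on, or that differ in these letters, are printed with the 100 bases before the start, 5′ to 3′ on the gene's own strand, with CHR letters (TTTGAA, or TTCAAA when read from the other strand) and CCAAT letters (CCAAT, or ATTGG from the other strand) in capitals. The first 6 hold CHR letters in this stretch and the last 4 do not. The start is that of the RefSeq entry, which is not always the start of the gene in GENCODE. The stretches of PLK1, KIF20A and CENPE lie inside their GENCODE gene spans, and those of CKAP2L, CCNB2, CCNB1 and ASPM overlap them in part. In MKI67 the last A of the second TTTGAA is also the first A of an ATTGG.
MKI67 (chr10:128126424-128126523, minus strand): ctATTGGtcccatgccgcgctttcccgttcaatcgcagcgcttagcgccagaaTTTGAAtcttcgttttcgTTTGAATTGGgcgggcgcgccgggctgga
CKAP2L (chr2:112764610-112764709, minus strand): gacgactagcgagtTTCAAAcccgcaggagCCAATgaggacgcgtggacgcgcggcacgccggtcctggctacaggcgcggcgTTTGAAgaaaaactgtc
ESPL1 (chr12:53268199-53268298, plus strand): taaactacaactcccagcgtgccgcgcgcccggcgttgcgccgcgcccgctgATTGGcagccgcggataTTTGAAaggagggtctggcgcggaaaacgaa
PLK1 (chr16:23678789-23678888, plus strand): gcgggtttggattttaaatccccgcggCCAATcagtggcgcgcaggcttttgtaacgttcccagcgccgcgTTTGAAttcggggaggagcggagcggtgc
CCNB2 (chr15:59105046-59105145, plus strand): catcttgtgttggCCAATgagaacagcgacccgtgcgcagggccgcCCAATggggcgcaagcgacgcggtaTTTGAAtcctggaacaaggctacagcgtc
CDC20 (chr1:43358881-43358980, plus strand): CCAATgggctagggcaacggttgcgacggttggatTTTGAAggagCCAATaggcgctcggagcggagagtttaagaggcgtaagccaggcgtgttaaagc
KIF20A (chr5:138179012-138179111, plus strand): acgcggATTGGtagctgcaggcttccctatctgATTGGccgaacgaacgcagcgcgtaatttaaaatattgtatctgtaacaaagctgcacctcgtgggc
CCNB1 (chr5:69167050-69167149, plus strand): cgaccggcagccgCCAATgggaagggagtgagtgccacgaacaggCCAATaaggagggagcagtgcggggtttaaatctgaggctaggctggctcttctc
ASPM (chr1:197146670-197146769, minus strand): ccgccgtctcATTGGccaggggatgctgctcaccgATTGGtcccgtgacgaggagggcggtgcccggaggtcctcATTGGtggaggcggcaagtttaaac
CENPE (chr4:103198344-103198443, minus strand): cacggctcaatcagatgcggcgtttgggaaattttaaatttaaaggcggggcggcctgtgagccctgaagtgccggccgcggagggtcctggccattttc
In PLK1, CCNB2 and MKI67 a TTTGAA began 29 bases before the start, and in ESPL1 31 bases before it. KIF20A, CCNB1 and ASPM showed CCAAT letters alone in this stretch, ASPM holds CHR letters elsewhere in its 300-base entry, and CENPE showed neither.

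Genes with and without these letters were both among those that fell. Of the 27 genes with CHR letters in at least 1 entry, 10 fell and 2 rose with PS80, and 20 fell and 1 rose with PS20. Of the 7 without (CCNA2, CCNB1, CENPE, AURKB, KIF20A, KIF2C and PTTG1), 2 fell and 1 rose with PS80, and 3 fell with PS20. Over all tested genes 33.4% were called either way with PS80 and 48.3% with PS20. The counts of the 7 are close to these shares, and nothing is read from them. CENPE and KIF20A, which had the lowest and the third lowest log2 fold changes with PS20 of the 40, were both without. Their windows were set from RefSeq starts that lie inside the GENCODE gene spans. A match is a description of the letters, and its absence says only that they are not in this window.

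**Figure D2:**
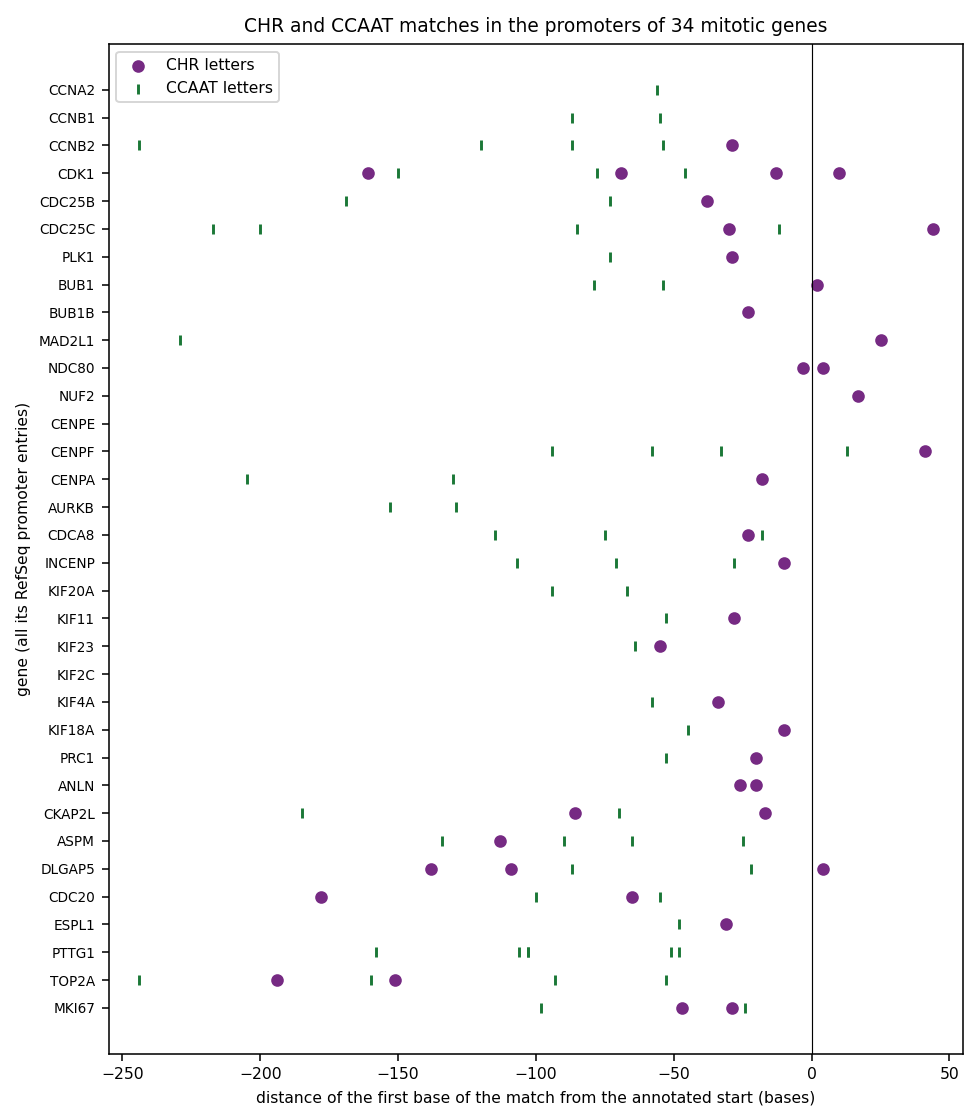
Positions of CHR and CCAAT letters in the RefSeq promoter entries of 34 genes, in bases from the start given by the entry. CHR letters gather just before the start, where 44.2% of the entries hold one in the last 60 bases.

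Of the 7 genes that switch on cyclin B and CDK1 or drive G2/M transcription, 3 fell (CCNB2, CDC25B and FOXM1) and CDK1 rose with PS80. With PS20, 3 fell (CCNB1, CDC25B and FOXM1) and CDC25C rose. Against PS20, PS80 was higher for 4 and lower for 1. The shares of all tested genes called either way were 33.4% with PS80, 48.3% with PS20 and 35.5% for PS80 against PS20. The count of these 7 with PS20 is near its share. CCNB1 encodes cyclin B1, the regulatory subunit that activates CDK1 at mitotic entry (chr5:69167135-69178245, plus strand, GRCh38, GENCODE release 42). It had 280.3, 260.2, 288, 305 and 317 CPM with PS80, 214, 235, 246, 251 and 253 CPM with PS20 and 259, 293, 317, 331 and 322 CPM in control. Every PS20 library was below every PS80 and control library. For CCNB1 the log2 fold changes were -0.072 ± 0.066 (adjusted p = 0.428) for PS80 against control, -0.35 ± 0.067 (adjusted p = 0.000212) for PS20 against control and 0.27 ± 0.066 (adjusted p = 0.00281) for PS80 against PS20. CDK1, the kinase itself, had 347, 269, 319.5, 305 and 309 CPM with PS80, 265, 281, 270.0, 276 and 261 CPM with PS20 and 249.6, 203, 285, 281 and 261 CPM in control. PS80 replicates 1, 3, 4 and 5 were above all other libraries, and PS80 replicate 2 lay among them. For CDK1 the log2 fold changes were 0.28 ± 0.074 (adjusted p = 0.00676) for PS80 against control, 0.083 ± 0.075 (adjusted p = 0.377) for PS20 against control and 0.19 ± 0.074 (adjusted p = 0.0451) for PS80 against PS20. The call of PS80 against PS20 ended without control replicate 5, any PS20 replicate, or PS80 replicate 1, 3, 4 or 5 (adjusted p = 0.0523 to 0.128).

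CDC25C, a phosphatase that removes the inhibitory phosphates of CDK1, was the only gene of the 40 called higher with PS20 against control and the only one called lower with PS80 than with PS20. It had 47.7, 50.8, 40.5, 41.1 and 44.6 CPM with PS80, 59.6, 57.8, 56.9, 58.2 and 54.98 CPM with PS20 and 39.02, 50.4, 41.1, 50.02 and 46.3 CPM in control. All PS20 libraries were above all others. For CDC25C the log2 fold changes were -0.021 ± 0.077 (adjusted p = 0.867) for PS80 against control, 0.32 ± 0.077 (adjusted p = 0.00161) for PS20 against control and -0.34 ± 0.074 (adjusted p = 0.00119) for PS80 against PS20. Its paralogue CDC25B, which acts earlier in G2, had log2 fold changes of -0.27 with PS80 and -0.46 with PS20 against control (adjusted p = 0.00652 and 2.17e-05). Its level was 97.2 ± 5.19 CPM with PS80, 84.9 ± 4.15 CPM with PS20 and 117 ± 14.8 CPM in control (SD, n = 5 each). Its difference between PS80 and PS20 (log2 fold change 0.20, adjusted p = 0.036) was lost without PS20 replicate 1, 3, 4 or 5 or PS80 replicate 2, 3 or 4 (adjusted p = 0.0531 to 0.0847).

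FOXM1, the forkhead transcription factor of G2/M genes (chr12:2857680-2877174, minus strand), had 260.4, 281, 264, 279 and 261 CPM with PS80, 217, 207, 204, 207 and 224 CPM with PS20 and 262, 287, 337, 319 and 330.1 CPM in control. Every PS20 library was below every PS80 and control library, and PS80 and control overlapped. For FOXM1 the log2 fold changes were -0.19 ± 0.058 (adjusted p = 0.0151) for PS80 against control, -0.54 ± 0.059 (adjusted p = 2.53e-07) for PS20 against control and 0.35 ± 0.059 (adjusted p = 0.000114) for PS80 against PS20. Without control replicate 5 the PS80 call against control ended (log2 fold change -0.16, adjusted p = 0.0507). Of the exon bases of FOXM1, 15.9% also belong to ITFG2, a neighbouring gene. CCNA2, cyclin A2 of S and G2 phase, was called in no comparison (log2 fold changes 0.0018, -0.11 and 0.11, in the same order), with a 95% interval of -0.045 to 0.26 for PS80 against PS20. CCNB2, cyclin B2, fell with PS80 against control (-0.20 ± 0.061 SE, adjusted p = 0.0157) and had a log2 fold change of -0.11 with PS20 (adjusted p = 0.13).

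**Figure D3:**
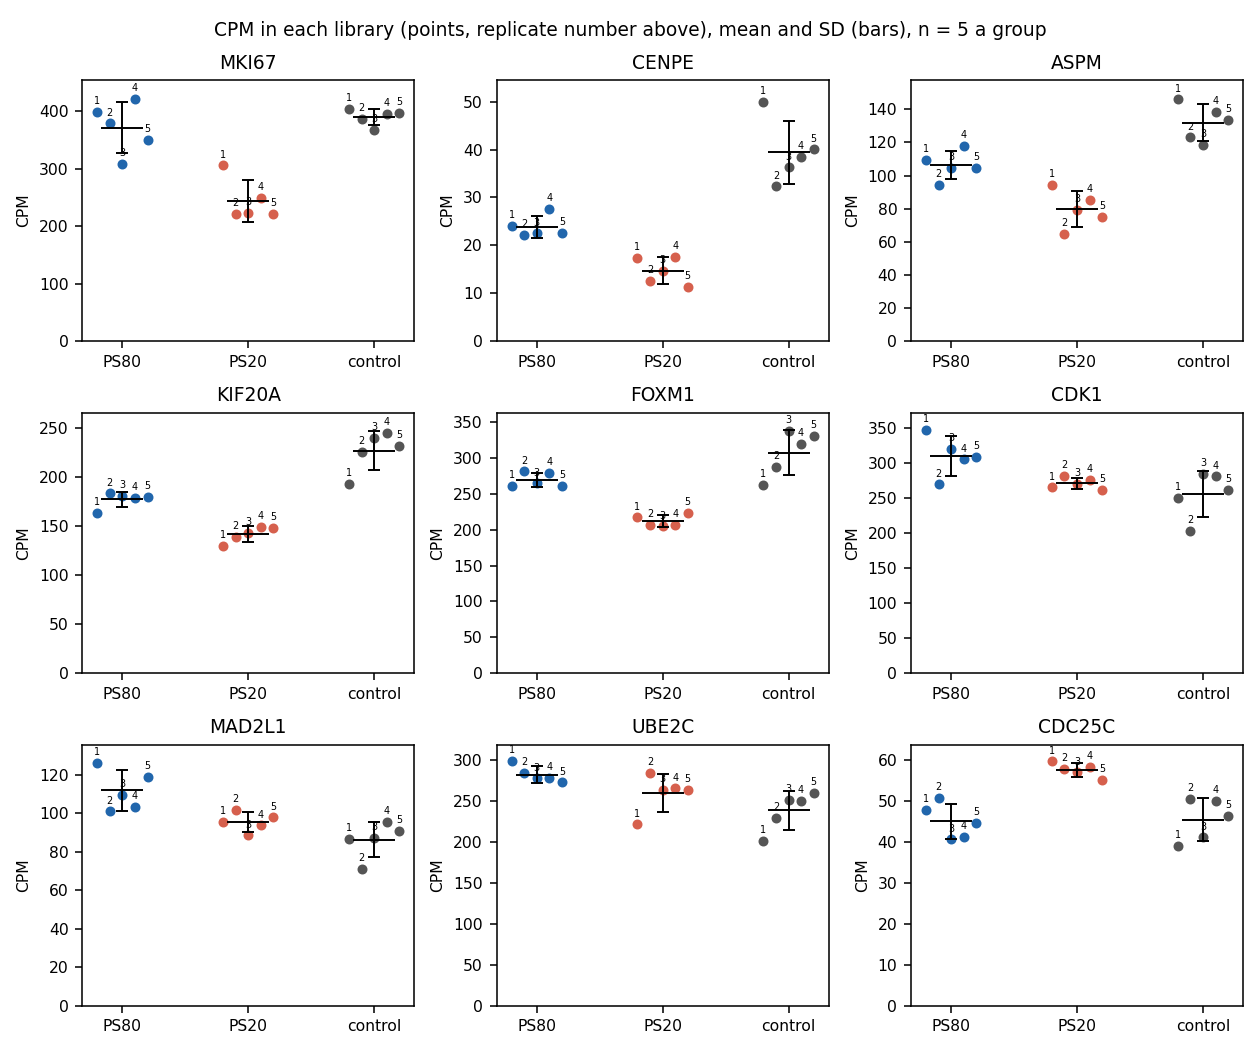
Levels in CPM of 9 genes in each library, grouped as PS80, PS20 and control, with a line at each group mean and bars for the SD over 5 libraries. MKI67, FOXM1 and ASPM are lowest with PS20, MAD2L1, CDK1 and UBE2C have their highest mean with PS80, and CDC25C is highest with PS20.

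Among the 6 mitotic kinases and spindle checkpoint genes, 2 (AURKA and TTK) fell and MAD2L1 rose with PS80, and 5 fell and none rose with PS20. PS80 was higher than PS20 for 5 and lower for none. All tested genes were called either way in 33.4% with PS80, 48.3% with PS20 and 35.5% for PS80 against PS20. PLK1, the polo-like kinase of mitotic entry and spindle assembly, had 179, 187, 188, 186 and 194 CPM with PS80, 152, 168, 158, 161 and 169 CPM with PS20 and 155, 170.4, 196, 202 and 209.6 CPM in control. All PS80 libraries were above all PS20 libraries, while PS20 overlapped control. For PLK1 the log2 fold changes were 0.00020 ± 0.065 (adjusted p = 0.999) for PS80 against control, -0.21 ± 0.065 (adjusted p = 0.0108) for PS20 against control and 0.21 ± 0.064 (adjusted p = 0.0138) for PS80 against PS20. Of its exon bases 12.8% also belong to other genes. AURKA, the Aurora kinase of the spindle poles, had 286, 273, 281, 292 and 295 CPM with PS80, 236, 230.5, 231, 223 and 240.4 CPM with PS20 and 285, 302, 327, 333 and 336 CPM in control. PS20 was again below both other groups without overlap. For AURKA the log2 fold changes were -0.15 ± 0.048 (adjusted p = 0.0206) for PS80 against control, -0.45 ± 0.049 (adjusted p = 2.31e-07) for PS20 against control and 0.30 ± 0.048 (adjusted p = 7.48e-05) for PS80 against PS20. Its PS80 call against control ended without control replicate 4 or 5 or PS80 replicate 2 (adjusted p = 0.0674, 0.0662 and 0.0544), and also without the filter on low counts (log2 fold change -0.13, adjusted p = 0.205).

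The checkpoint genes did not move together. BUB1B encodes BUBR1, part of the complex that holds back anaphase, and had 66.1, 53.3, 57.5, 62.4 and 58.3 CPM with PS80, 45.98, 46.2, 39.4, 42.9 and 37.6 CPM with PS20 and 55.3, 56.3, 56.8, 57.4 and 64.8 CPM in control. Its PS20 libraries were below all others, and PS80 and control overlapped. For BUB1B the log2 fold changes were 0.027 ± 0.072 (adjusted p = 0.815) for PS80 against control, -0.46 ± 0.075 (adjusted p = 3.23e-05) for PS20 against control and 0.49 ± 0.073 (adjusted p = 2.81e-05) for PS80 against PS20. Of its exon bases 10.2% are shared with its read-through transcript BUB1B-PAK6 and with PAK6. TTK, the checkpoint kinase MPS1, had 63.3, 53.5, 56.8, 59.4 and 59.1 CPM with PS80, 61.5, 63.7, 57.1, 71.8 and 58.1 CPM with PS20 and 63.9, 72.4, 80.2, 75.9 and 80.7 CPM in control. Every PS80 library was below every control library, and PS80 and PS20 overlapped. For TTK the log2 fold changes were -0.36 ± 0.074 (adjusted p = 0.000838) for PS80 against control, -0.26 ± 0.074 (adjusted p = 0.00629) for PS20 against control and -0.10 ± 0.073 (adjusted p = 0.323) for PS80 against PS20. MAD2L1, the checkpoint protein MAD2, went the other way, with 127, 101, 109.7, 103 and 119 CPM with PS80, 95.5, 102, 88.6, 93.8 and 97.99 CPM with PS20 and 86.6, 71.2, 87.4, 95.5 and 90.9 CPM in control. Every PS80 library was above every control library. For MAD2L1 the log2 fold changes were 0.37 ± 0.076 (adjusted p = 0.000744) for PS80 against control, 0.14 ± 0.077 (adjusted p = 0.128) for PS20 against control and 0.23 ± 0.075 (adjusted p = 0.0199) for PS80 against PS20. The call between PS80 and PS20 was lost without PS20 replicate 3 or PS80 replicate 1 or 5 (adjusted p = 0.0636, 0.0627 and 0.0525). BUB1, the kinase that recruits the checkpoint to kinetochores, fell with PS20 against control (-0.18 ± 0.056 SE, adjusted p = 0.0123) and had a log2 fold change of 0.0062 with PS80 (adjusted p = 0.95).

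Kinetochore genes held the largest change of the 40. Of 5, 4 fell with PS80 and 4 with PS20, all but CENPA in each case, and PS80 was higher than PS20 for CENPE and CENPF. Among all tested genes 33.4% were called either way with PS80, 48.3% with PS20 and 35.5% for PS80 against PS20. The last count is near its share. CENPE is the kinesin motor that carries chromosomes along microtubules to the middle of the spindle (chr4:103105349-103198445, minus strand). It had 23.99, 22.2, 22.5, 27.6 and 22.6 CPM with PS80, 17.4, 12.6, 14.6, 17.6 and 11.4 CPM with PS20 and 49.95, 32.3, 36.3, 38.4 and 40.03 CPM in control. The groups did not overlap in any pair: PS20 was lowest, PS80 in between and control highest. For CENPE the log2 fold changes were -0.72 ± 0.11 (adjusted p = 5.31e-05) for PS80 against control, -1.41 ± 0.12 (adjusted p = 7.11e-09) for PS20 against control and 0.69 ± 0.12 (adjusted p = 0.000148) for PS80 against PS20. It was also, per length, one of the scarcest of the 40 mRNAs in control, at 3.97 CPM per kilobase of exon against 185 for UBE2C.

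CENPF, a large protein of the outer kinetochore coat, had 220.0, 196, 187, 248 and 219 CPM with PS80, 207, 146, 169, 204 and 153 CPM with PS20 and 254, 249.5, 244, 256 and 249 CPM in control. All PS20 libraries were below all control libraries. For CENPF the log2 fold changes were -0.23 ± 0.085 (adjusted p = 0.0431) for PS80 against control, -0.51 ± 0.086 (adjusted p = 4.56e-05) for PS20 against control and 0.29 ± 0.085 (adjusted p = 0.012) for PS80 against PS20. Its PS80 call against control was weak: it ended without any single control replicate, without PS20 replicate 3 or without PS80 replicate 1, 2, 3 or 5 (adjusted p = 0.0514 to 0.112). NDC80 is the core of the complex that grips the microtubule end, and had 42.2, 35.7, 45.01, 42.2 and 45.1 CPM with PS80, 46.9, 48.6, 42.8, 42.9 and 43.96 CPM with PS20 and 52.1, 50.8, 54.7, 58.1 and 61.8 CPM in control. Both polysorbate groups were below all control libraries and overlapped each other. For NDC80 the log2 fold changes were -0.41 ± 0.074 (adjusted p = 0.000239) for PS80 against control, -0.31 ± 0.075 (adjusted p = 0.00185) for PS20 against control and -0.10 ± 0.074 (adjusted p = 0.287) for PS80 against PS20. Its partner NUF2 also fell in both, with log2 fold changes of -0.29 with PS80 and -0.32 with PS20 against control (adjusted p = 0.00855 and 0.00301). CENPA, the histone H3 variant that marks the centromere, had log2 fold changes of -0.085 and -0.10 and was called in neither (adjusted p = 0.483 and 0.354).

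The chromosomal passenger complex corrects wrong attachments and later steers cytokinesis. Of its 4 subunits, AURKB rose and BIRC5 fell with PS80, and BIRC5 and INCENP fell with PS20. These counts are read beside the 33.4% of all tested genes called either way with PS80 and 48.3% with PS20. They are too small to describe the complex as a whole. AURKB, the kinase of the complex, had 64.2, 60.7, 54.1, 53.6 and 57.3 CPM with PS80, 51.7, 53.3, 45.6, 52.5 and 48.4 CPM with PS20 and 38.2, 41.8, 47.99, 50.7 and 46.04 CPM in control. PS80 was above both other groups in every library. For AURKB the log2 fold changes were 0.36 ± 0.076 (adjusted p = 0.000956) for PS80 against control, 0.15 ± 0.078 (adjusted p = 0.115) for PS20 against control and 0.21 ± 0.074 (adjusted p = 0.0289) for PS80 against PS20. The call between PS80 and PS20 ended without PS20 replicate 3 or 5 or PS80 replicate 1 or 2 (adjusted p = 0.0577 to 0.0984). BIRC5, which encodes survivin, had 113, 107, 119.7, 113 and 123 CPM with PS80, 93.4, 106, 108, 95.3 and 109.8 CPM with PS20 and 122, 127, 153, 149.9 and 153 CPM in control. PS20 was below every control library. For BIRC5 the log2 fold changes were -0.30 ± 0.070 (adjusted p = 0.00248) for PS80 against control, -0.46 ± 0.070 (adjusted p = 1.79e-05) for PS20 against control and 0.16 ± 0.070 (adjusted p = 0.0755) for PS80 against PS20. INCENP, the scaffold of the complex, had 117, 117, 107, 109.9 and 100.5 CPM with PS80, 86.5, 85.6, 80.8, 95.8 and 85.9 CPM with PS20 and 100.1, 99.8, 114, 109 and 119 CPM in control. PS20 was below both other groups without overlap. For INCENP the log2 fold changes were 0.028 ± 0.064 (adjusted p = 0.781) for PS80 against control, -0.32 ± 0.065 (adjusted p = 0.000375) for PS20 against control and 0.35 ± 0.064 (adjusted p = 0.000263) for PS80 against PS20. CDCA8, the subunit borealin, was called in no comparison (log2 fold changes between -0.12 and 0.054).

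Of the 6 mitotic kinesins, 3 (KIF20A, KIF4A and KIF18A) fell with PS80 and 5, all but KIF2C, fell with PS20. Calls either way took 33.4% of all tested genes with PS80 and 48.3% with PS20. KIF20A moves the passenger complex to the middle of the anaphase spindle (chr5:138178719-138187723, plus strand) and had 164, 184, 181, 179 and 180.0 CPM with PS80, 129.7, 139, 143, 149.7 and 148 CPM with PS20 and 194, 226, 239.9, 245 and 232 CPM in control. The groups were fully separate, PS20 lowest and control highest. For KIF20A the log2 fold changes were -0.36 ± 0.059 (adjusted p = 0.000107) for PS80 against control, -0.68 ± 0.060 (adjusted p = 1.24e-08) for PS20 against control and 0.32 ± 0.059 (adjusted p = 0.000271) for PS80 against PS20. KIF11 is the motor that pushes the spindle poles apart, and had 145, 137, 164, 159 and 160.0 CPM with PS80, 127, 129, 134, 137 and 132 CPM with PS20 and 154, 154, 169, 175 and 182 CPM in control. PS20 was below every control library, and PS80 overlapped both. For KIF11 the log2 fold changes were -0.13 ± 0.059 (adjusted p = 0.0977) for PS80 against control, -0.34 ± 0.060 (adjusted p = 9.01e-05) for PS20 against control and 0.21 ± 0.059 (adjusted p = 0.00915) for PS80 against PS20. With the replicate number as a block, PS80 also passed against control (-0.13, adjusted p = 0.024). KIF23, a part of centralspindlin in cytokinesis, fell with PS20 (-0.46 ± 0.093 SE, adjusted p = 0.000313), as did KIF4A, a chromosome-bound motor (-0.32 ± 0.052 SE, adjusted p = 3.21e-05), and KIF18A, which damps chromosome movements at the plate (-0.35 ± 0.093 SE, adjusted p = 0.0036). KIF2C, a motor that takes microtubule ends apart, had log2 fold changes of 0.074 with PS80 and 0.049 with PS20 (adjusted p = 0.484 and 0.623).

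Spindle and cytokinesis proteins gave some of the larger decreases. Of 6, 3 (CKAP2L, ASPM and DLGAP5) fell with PS80 and 5 with PS20, while PS80 was higher than PS20 for 5. Beside these stand 33.4%, 48.3% and 35.5% of all tested genes called either way, in the same order. ASPM, a spindle pole protein, had 109.5, 94.5, 105, 118 and 105 CPM with PS80, 94.3, 64.7, 79.4, 85.4 and 75.2 CPM with PS20 and 146, 123, 118, 138 and 134 CPM in control. All 3 groups were separate, with PS20 lowest and control highest. For ASPM the log2 fold changes were -0.32 ± 0.082 (adjusted p = 0.00496) for PS80 against control, -0.73 ± 0.084 (adjusted p = 4.51e-07) for PS20 against control and 0.41 ± 0.082 (adjusted p = 0.000632) for PS80 against PS20. CKAP2L, a spindle protein, had 36.6, 34.6, 33.8, 42.4 and 36.2 CPM with PS80, 29.3, 28.1, 32.4, 32.5 and 28.5 CPM with PS20 and 47.6, 44.4, 46.8, 49.3 and 54.4 CPM in control. The same order held without overlap. For CKAP2L the log2 fold changes were -0.41 ± 0.073 (adjusted p = 0.000236) for PS80 against control, -0.68 ± 0.075 (adjusted p = 2.76e-07) for PS20 against control and 0.27 ± 0.074 (adjusted p = 0.00631) for PS80 against PS20. DLGAP5, which stabilises spindle microtubules near chromosomes, had log2 fold changes of -0.29 with PS80 and -0.52 with PS20 against control (adjusted p = 0.00188 and 1.62e-06).

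TPX2, which activates AURKA and seeds spindle microtubules, was among the most abundant of the 40 per length (157 CPM per kilobase in control), and had 603, 584, 570.2, 575 and 598 CPM with PS80, 496, 513, 479, 512 and 497 CPM with PS20 and 512, 545, 586, 589 and 603 CPM in control. PS80 was above PS20 in every library. For TPX2 the log2 fold changes were 0.048 ± 0.047 (adjusted p = 0.458) for PS80 against control, -0.18 ± 0.047 (adjusted p = 0.00261) for PS20 against control and 0.23 ± 0.046 (adjusted p = 0.000584) for PS80 against PS20. ANLN, anillin of the contractile ring, had 142, 141, 147, 159 and 154 CPM with PS80, 128, 128, 122, 127 and 125 CPM with PS20 and 154, 135, 164, 164 and 158 CPM in control. PS20 was below both other groups in every library. For ANLN the log2 fold changes were -0.060 ± 0.056 (adjusted p = 0.438) for PS80 against control, -0.30 ± 0.056 (adjusted p = 0.000187) for PS20 against control and 0.24 ± 0.055 (adjusted p = 0.00224) for PS80 against PS20. PRC1, which bundles microtubules of the central spindle, had only 242 counts over the 15 libraries, and 61.9% of its exon bases also belong to other genes in the annotation, so its value is not read as its level. It had 1.42, 1.35, 1.79, 1.82 and 1.69 CPM with PS80, 1.33, 1.08, 1.55, 1.12 and 0.359 CPM with PS20 and 1.72, 0.737, 2.15, 1.17 and 1.23 CPM in control. The groups overlapped, and no comparison was called (adjusted p = 0.463, 0.707 and 0.214).

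Of 4 genes of anaphase onset, UBE2C rose and none fell with PS80, and CDC20 and ESPL1 fell with PS20. Over all tested genes 33.4% were called either way with PS80 and 48.3% with PS20, so nothing is read from these counts. CDC20 activates the anaphase promoting complex, and had 164, 171, 168, 167 and 179 CPM with PS80, 125, 142, 137, 130.0 and 144 CPM with PS20 and 131, 149, 180.3, 172 and 164 CPM in control. PS80 was above PS20 in every library, and both overlapped control. For CDC20 the log2 fold changes were 0.094 ± 0.067 (adjusted p = 0.3) for PS80 against control, -0.23 ± 0.068 (adjusted p = 0.00741) for PS20 against control and 0.33 ± 0.067 (adjusted p = 0.000715) for PS80 against PS20. UBE2C, the ubiquitin-conjugating enzyme of that complex, had 298, 284, 277, 278 and 272 CPM with PS80, 221, 284, 264, 265 and 263 CPM with PS20 and 201, 229.5, 251, 249.7 and 259 CPM in control. Every PS80 library was above every control library, and PS20 overlapped both. For UBE2C the log2 fold changes were 0.24 ± 0.066 (adjusted p = 0.00744) for PS80 against control, 0.12 ± 0.066 (adjusted p = 0.132) for PS20 against control and 0.12 ± 0.065 (adjusted p = 0.165) for PS80 against PS20. ESPL1, the separase that cuts cohesin, had a log2 fold change of -0.50 with PS20 against control (adjusted p = 6.32e-05) and of 0.40 with PS80 against PS20 (adjusted p = 0.000877). PTTG1, the securin that restrains it, was called in no comparison, with log2 fold changes of 0.16, 0.026 and 0.13 in the order PS80 against control, PS20 against control, PS80 against PS20.

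MKI67 encodes Ki-67, a coat protein of mitotic chromosomes and the usual marker of cycling cells (chr10:128096659-128126423, minus strand). It had 399.6, 379, 309, 422 and 349.9 CPM with PS80, 306, 221, 223, 249.5 and 221 CPM with PS20 and 405, 387, 367, 396 and 398 CPM in control. PS20 was below both other groups in every library, and PS80 overlapped control. For MKI67 the log2 fold changes were -0.070 ± 0.082 (adjusted p = 0.552) for PS80 against control, -0.68 ± 0.084 (adjusted p = 1.12e-06) for PS20 against control and 0.61 ± 0.083 (adjusted p = 1.02e-05) for PS80 against PS20. The mean with PS20 was 244 ± 36.6 CPM and the mean in control was 391 ± 14.4 CPM (SD, n = 5 each), so that MKI67 mRNA fell by 37.6% with PS20. TOP2A, the topoisomerase that untangles sister DNA, had 538, 478, 479, 488 and 478 CPM with PS80, 475, 492, 429, 455 and 410.1 CPM with PS20 and 516, 506, 524, 543 and 540.2 CPM in control. PS20 was below every control library. For TOP2A the log2 fold changes were -0.10 ± 0.052 (adjusted p = 0.159) for PS80 against control, -0.22 ± 0.052 (adjusted p = 0.00149) for PS20 against control and 0.12 ± 0.052 (adjusted p = 0.0688) for PS80 against PS20. With the replicate number as a block, the difference between PS80 and PS20 passed (0.12, adjusted p = 0.0369).

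**Figure D4:**
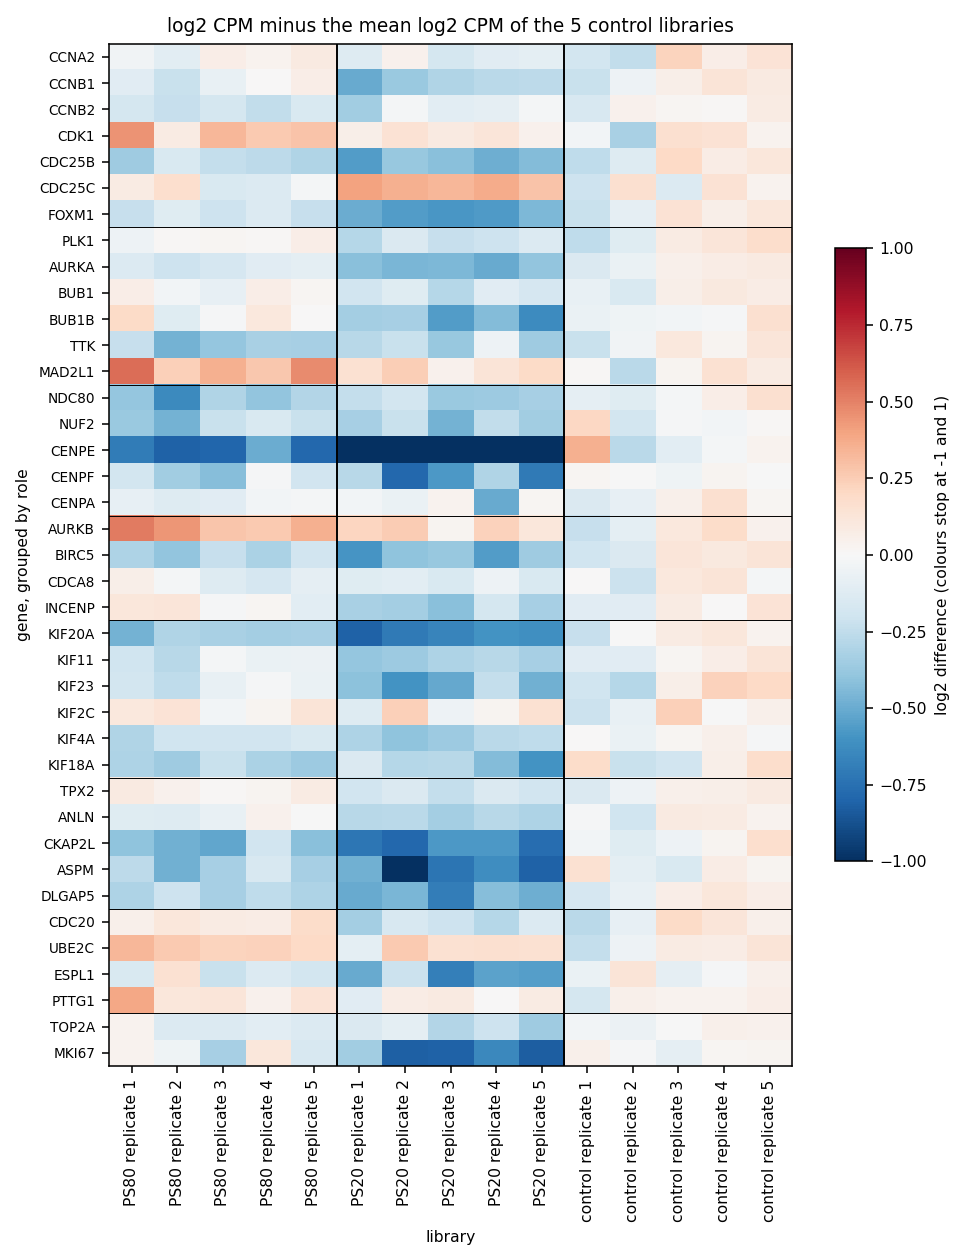
Log2 CPM of 39 genes in each library, relative to the control mean of that gene, ordered by role; PRC1 is left out for its low count. Columns run PS80, PS20, control, and the PS20 columns are the lowest for most genes, while for many genes control replicates 1 and 2 are lower than control replicates 3 to 5. Colours stop at -1 and 1.

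PS80 and PS20 were compared at the same dose and time as 1 pair of compounds, with p-values adjusted over all tested genes. They differed for 25 of the 40 genes, where 35.5% of all tested genes were called either way. The differences were led by CENPE (0.69, 95% interval 0.44 to 0.93), MKI67 (0.61, 0.44 to 0.78), BUB1B (0.49, 0.34 to 0.64), ASPM (0.41, 0.24 to 0.58) and ESPL1 (0.40, 0.23 to 0.58), all higher with PS80. For 15 genes the difference did not pass. The 95% interval of the log2 fold change was -0.14 to 0.20 for NUF2, -0.17 to 0.21 for KIF18A, -0.16 to 0.19 for CENPA and -0.13 to 0.18 for KIF2C. For BIRC5 (0.017 to 0.31) and TOP2A (0.016 to 0.23) it lay above 0 although the adjusted p missed the threshold (adjusted p = 0.0755 and 0.0688).

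Control libraries differed among themselves in these genes. In control, 26 of the 40 genes were lower in both replicates 1 and 2 than in replicates 3 to 5, and 0 were higher, against 17.2% and 18.0% of all tested genes. The median difference was -0.19 on the log2 scale. With PS80 it was 8 lower and 5 higher (background 19.6% and 19.5%), and with PS20 3 lower and 5 higher (15.8% and 16.2%). The labels do not say what a replicate number marks, and this split was taken from earlier results of these data. With replicates 1 and 2 alone, 4 genes fell and 4 rose with PS80, where 15.7% of all genes tested there were called either way, and 12 fell and AURKB rose with PS20, where 24.1% were. The PS80 count is close to its background. So is that of PS80 against PS20 there, with 4 higher and 0 lower, where 10.8% of all genes were called either way. Calls kept with PS20 there were CCNB1, FOXM1, AURKA, CENPE, CENPF, BIRC5, KIF20A, KIF4A, CKAP2L, ASPM, DLGAP5 and MKI67. With replicates 3 to 5 alone, 19 fell and 4 rose with PS80 (30.9% of all genes either way), and 30 fell and 1 rose with PS20 (49.6%). In replicates 1 and 2 the log2 fold change with PS20 against control was -0.59 for MKI67 (adjusted p = 0.0027) and -1.43 for CENPE (adjusted p = 0.000113). The other 17 PS20 calls were lost in replicates 1 and 2. Log2 fold changes there were -0.033 for PLK1, -0.039 for BUB1, -0.071 for TPX2, -0.082 for CDC20, -0.083 for TOP2A, -0.11 for NDC80, -0.13 for TTK, -0.17 for ANLN and -0.18 for KIF18A (adjusted p = 0.268 to 0.862). CDC25B, BUB1B, NUF2, INCENP, KIF11, KIF23 and ESPL1 lay between -0.22 and -0.40, and CDC25C at 0.36 (adjusted p = 0.051 to 0.186). In a further fit only PS80 replicate 2, the single PS80 library counted with version 2.0.0, was kept for PS80. The median log2 fold change of the 40 genes was then -0.14 against control and 0.16 against PS20. With all libraries it was -0.09 and 0.21. That fit holds 1 PS80 library, so no calls are given here, and nothing is read from its counts of calls. The genes called higher with PS80 against control had log2 fold changes there of 0.42 (AURKB), 0.078 (CDK1), 0.23 (MAD2L1) and 0.25 (UBE2C). Against PS20, CDK1 had 0.0024.

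Among the 40 genes, those with more annotated exon bases tended to have the larger decreases with PS20. Across the 40 genes, Pearson's r between log2 fold change and log2 exon length was -0.60 with PS20 against control, -0.36 with PS80 against control and 0.52 for PS80 against PS20, and across all tested genes it was -0.073, -0.036 and 0.063. These are correlations across genes measured in the same 15 libraries, not across independent samples. The genes were cut at 4000 bases, a length chosen after the values were seen. The 20 longer genes had a median log2 fold change of -0.34 with PS20, with 18 lower and 0 higher. The 20 shorter ones had -0.15, with 10 lower and 1 higher. At the same cut, 2200 of all 8311 longer tested genes were called lower and 1910 higher with PS20. Of the 4458 shorter ones, 848 were called lower and 1205 higher. After the length trend of all genes was taken out of each library, r within the set was -0.53 with PS20 against control. In that fit 30 genes fell and 1 rose, where 48.2% of all tested genes were called either way.

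**Figure D5:**
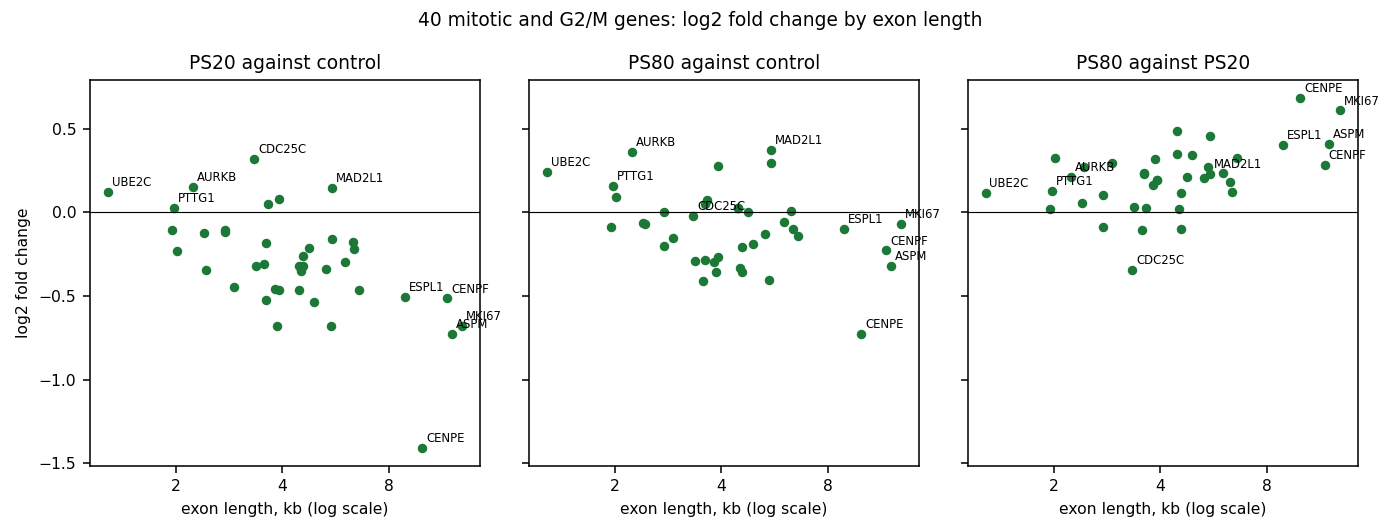
Log2 fold change against exon length (log axis) for the 40 genes, 1 point a gene, in each comparison. With PS20 the long genes CENPE, ASPM and MKI67 are among the lowest, and KIF20A, 1 of the 20 shorter genes, is the third lowest.

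Related genes outside the 40 were read from 10 lists written with earlier results of these data known. Of 186 that passed the filter out of 194, 34 rose and 27 fell with PS80, and 13 rose and 92 fell with PS20. PS80 was higher than PS20 for 95 and lower for 7. Over all tested genes, 17.4% rose and 16.0% fell with PS80, 24.4% rose and 23.9% fell with PS20, and 18.2% were higher and 17.3% lower with PS80 than with PS20, so the PS80 counts against control are near the background. By list, some counts of calls in either direction were below the share of all tested genes (33.4% with PS80 and 48.3% with PS20). These were other kinetochore, anaphase promoting complex, centriole and G1 genes with both, condensin with PS80, and other mitotic kinases with PS20. Counts were close to the share for MuvB, MYB and E2F genes with both, and for other spindle, kinesin and cytokinesis genes with PS80. Nothing is read from any of those counts. All 8 condensin subunits, which compact mitotic chromosomes, fell with PS20 (median -0.37) and were higher with PS80 than with PS20 (median 0.34), and 1 rose and 1 fell with PS80 against control. SMC4, the ATPase core of condensin, averaged 129 ± 10.6 CPM with PS20 and 195 ± 10.5 CPM in control (SD, n = 5 each; log2 fold change -0.60 ± 0.065 SE, edgeR adjusted p = 2.15e-07). Of 13 cohesin and shugoshin genes, which hold sister chromatids together, 6 fell with PS80 and 9 with PS20, and none rose. STAG1, a cohesin subunit, averaged 40.2 ± 2.39 CPM with PS20 and 82.1 ± 4.49 CPM in control (SD, n = 5 each; log2 fold change -1.03 ± 0.072 SE, edgeR adjusted p = 4.78e-10), and its log2 fold change was -0.53 with PS80 against control.

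Of 28 other spindle, kinesin and cytokinesis genes, 5 rose and 6 fell with PS80, and 1 rose and 19 fell with PS20. GTSE1, a microtubule-binding protein of G2, averaged 27.8 ± 1.77 CPM with PS20 and 50.3 ± 4.81 CPM in control (SD, n = 5 each; log2 fold change -0.85 ± 0.071 SE, edgeR adjusted p = 5.76e-09). KIF14, a motor of late cytokinesis, had log2 fold changes of -0.40 with PS80 and -0.82 with PS20 against control. Of 27 other kinetochore genes, 2 rose and 3 fell with PS80, and 2 rose and 9 fell with PS20. CENPH, a subunit of the inner kinetochore, rose in both, with log2 fold changes of 0.31 with PS80 and 0.68 with PS20, and PMF1, of the MIS12 complex, fell in both, with -0.39 and -0.64 in the same order. Of 12 other mitotic kinases and phosphatase regulators, 4 rose and 2 fell with PS80, and 1 rose and 3 fell with PS20. WEE1, the kinase that holds CDK1 inactive, averaged 126 ± 2.51 CPM with PS80 and 96.5 ± 8.07 CPM in control (SD, n = 5 each; log2 fold change 0.39 ± 0.062 SE, edgeR adjusted p = 8.72e-05), and with PS20 its log2 fold change was 0.31. NEK2, a kinase of centrosome separation, fell in both, with log2 fold changes of -0.25 with PS80 and -0.41 with PS20.

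Of 17 anaphase promoting complex genes, 2 rose and 1 fell with PS80, and 2 rose and 6 fell with PS20. ANAPC7, a subunit, averaged 50.1 ± 2.73 CPM with PS80 and 33.5 ± 2.64 CPM with PS20 (SD, n = 5 each; log2 fold change 0.59 ± 0.068 SE, edgeR adjusted p = 1.25e-06). Of 12 centriole duplication genes, 0 rose and 1 fell with PS80, and 1 rose and 3 fell with PS20. Of 18 MuvB, MYB and E2F genes, 5 rose and 2 fell with PS80, and 1 rose and 8 fell with PS20. E2F1, which drives G1/S transcription, averaged 87.2 ± 4.36 CPM with PS80 and 62.1 ± 3.65 CPM with PS20 (SD, n = 5 each; log2 fold change 0.48 ± 0.066 SE, edgeR adjusted p = 1.03e-05), and E2F8, a repressor of the same targets, had a log2 fold change of -0.57 with PS20 against control. Of 19 G1 and G1/S genes, 4 rose and 2 fell with PS80, and 3 rose and 5 fell with PS20. CCND1, cyclin D1, averaged 406 ± 21.9 CPM with PS80 and 279.7 ± 7.16 CPM in control (SD, n = 5 each; log2 fold change 0.54 ± 0.054 SE, edgeR adjusted p = 4.35e-07). SKP2, which marks the inhibitor p27 for destruction, averaged 241 ± 14.1 CPM with PS20 and 374 ± 42.6 CPM in control (SD, n = 5 each; log2 fold change -0.64 ± 0.071 SE, edgeR adjusted p = 2.85e-07).

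Of 32 DNA replication genes, 11 rose and 3 fell with PS80, and 2 rose and 22 fell with PS20, with medians of 0.12 and -0.29. PS80 was higher than PS20 for 27 and lower for none (median 0.40). MCM6, a subunit of the replicative helicase, averaged 381 ± 12.8 CPM with PS80 and 261 ± 15.2 CPM with PS20 (SD, n = 5 each; log2 fold change 0.54 ± 0.047 SE, edgeR adjusted p = 4.33e-08). Whether the 40 mitotic genes differ from these lists was not tested.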

How the data were processed

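Poly(A)-selected RNA of 15 Caco-2 libraries was sequenced, per the labels' protocols. The deposited values are raw counts of reads for every gene, 1 table a library, and a deposited Length column gives exon bases per gene. Counting used featureCounts 2.0.0 or 2.0.3, GENCODE release 42 and a mapping quality of at least 10, per the file headers. The submitters' processing notes also name cutadapt, STAR 2.7.9a and DESeq2 1.32.0.

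Counts were tested with edgeR 4.0.16 (R 4.3.3): filterByExpr (minimum count 10, minimum total 15), TMM, 1 term per group over 15 libraries, glmQLFit and glmQLFTest, Benjamini-Hochberg over 12769 genes. The scripts were tested on simulated data. Alternatives included DESeq2 1.42.0, other scalings, no filter, subsets of libraries, a replicate block and a length correction.

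The 40 genes and the lists were chosen with earlier results of these data known. Values in every library are given for the 2 most abundant genes of each role and the 3 highest and 3 lowest log2 fold changes of each comparison (25 genes), and, chosen after its values were seen, for FOXM1. From each related list, up to 3 genes with the smallest p per comparison could be named.

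Replicate numbers are shared between groups. Same-numbered PS80 and control libraries deviated together (correlations across genes 0.102 to 0.304), though PS80 replicates 1 and 5 correlated better with another control. PS20 and control (-0.026 to 0.248) and PS80 and PS20 (0.074 to 0.290) did not all pass 0.1. The blocked alternative nevertheless used the replicate number in all 15 libraries, those of PS20 included. Gene IDs were named from the annotation tables: 39 matched with version and CENPF without it.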

Additional observations from a re-analysis of the deposited data

Results flagged for a closer look

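In 3 of the 75 gene and group combinations examined, for 25 genes in 3 groups, 1 library lay far from the other 4 of its group, by a gap of more than 0.71 of the group's range. Chance flags about 1 in 20 such groups. KIF20A, the kinesin of the anaphase spindle, had 164 CPM in PS80 replicate 1, against 179 to 184 CPM in the other PS80 libraries (gap 0.782 of the range). TOP2A, the topoisomerase, had 538 CPM in the same library, against 478 to 488 CPM in the others (0.827). BUB1B, the checkpoint protein, had 64.8 CPM in control replicate 5, against 55.3 to 57.4 CPM in the other control libraries (0.776). The cause of these values was not tested.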

How the results depend on the processing

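No call of the 25 genes chosen by rule turned round under any of the 26 alternatives. Of 1949 values, 1778 kept their call, or stayed without one and moved by less than 1 standard error. A call was lost by 123 and gained by 19, and 29 stayed without a call and moved further. Of the 597 values without a call in the main fit, 29 changed sign without gaining a call. Against a fold of 1.2, PS80 against control gave 0 higher and 1 lower, PS20 against control 0 higher and 14 lower, and PS80 against PS20 3 higher and 0 lower. With replicates 1 and 2 alone, PS80 against control gave 4 lower (median log2 fold change -0.020), and PS20 against control 12 lower (median -0.18). PS80 against PS20 gave 4 higher and 0 lower there (median 0.20). Of all genes tested there, 10.8% were called either way, so that count is close to its background. With replicates 3 to 5 alone the median for PS80 against control was -0.15. With only the PS80 library counted with featureCounts 2.0.0, PS80 against control gave 1 higher and 9 lower, and PS80 against PS20 9 higher and 0 lower; its lone PS80 library is assumed to vary like the other groups. Fewer libraries entered these fits, and otherwise the cause was not tested. Nothing is read from the counts of the fit with 1 PS80 library, beside which no share of all tested genes is given. The median log2 fold change of the 40 genes in that fit was -0.14 for PS80 against control and 0.16 for PS80 against PS20. Leaving out each library in turn gave 4 to 5 higher and 13 to 16 lower for PS80 against control, 1 to 2 higher and 28 to 29 lower for PS20 against control, and 20 to 24 higher and 1 lower for PS80 against PS20. The second gene higher with PS20 was AURKB without control replicate 4 and UBE2C without PS20 replicate 1. The replicate block gave 4 higher and 17 lower, 1 higher and 28 lower, and 26 higher and 1 lower in the same order, adding KIF11 against control and BIRC5 and TOP2A against PS20, and it changed no other call among the 40. The length correction, chosen after seeing the data, gave 4 higher and 16 lower, 1 higher and 30 lower, and 27 higher and 1 lower. Over all tested genes, the block called 40.4%, 53.8% and 42.7% either way in the same order, and the length correction 33.9%, 48.2% and 35.8%. Depth limits PRC1, with 242 counts in all.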

Other observations

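The spread between libraries of these genes is described by group, without a test. Control holds the libraries with the lowest totals (4183096 and 4610042 counts) and the split of replicates 1 and 2 from replicates 3 to 5. Their part in the spread was not tested. The median coefficient of variation of the 40 genes over 5 libraries was 6.26% with PS80, 6.54% with PS20 and 8.96% in control. In each group it was highest for PRC1, the gene with the lowest count. After PRC1 it was highest for MKI67 with PS80 (11.8%) and for CENPE with PS20 (19.0%) and in control (16.7%), and it was lowest for TPX2 with PS80 (2.40%), ANLN with PS20 (2.01%) and CENPF in control (1.91%). Per kilobase of exon in control, the most abundant of the 40 mRNAs after UBE2C and TPX2 were CCNB1 at 125 ± 11.8 CPM and AURKA at 108 ± 7.54 CPM (SD, n = 5), which differ by more than 1 SD. TOP2A at 82.5 ± 2.48 CPM per kilobase and CDC20 at 79.1 ± 9.64 CPM per kilobase did not differ beyond their spread.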
